A study of Rattus norvegicus with 8 samples.

Results

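The genes described here are 10 members of the amino acid response, namely Atf4 and 9 genes known to be induced with or by its product when amino acids are scarce. They were chosen by gene symbol, as probe sets whose only symbol in the platform annotation was Atf4, Atf5, Ddit3, Trib3, Gdf15, Chac1, Sesn2, Asns, Psat1 or Phgdh. All 10 were measured, out of 14217 genes with a named probe set, and they were represented by 13 of the 31042 probe sets tested. The arrays came from the epitrochlearis, a thin forelimb muscle made mostly of fast fibres, with 1 array per rat. The groups were 4 rats given whey protein hydrolysate with carbohydrate (WPH) and 4 rats given a free amino acid mixture with carbohydrate (AAM). All 8 were male Sprague-Dawley rats aged 6 weeks that had eaten a restricted diet of 5 g on the day before, had 3 days of swimming practice and then swam for 2 h. Each meal supplied 44 kJ by gavage right after the swim. Neither an unfed nor a rested rat was among the 8, and the sources used here do not give the interval between meal and sampling. The comparison therefore asks whether amino acids taken as peptides or in free form left a different amino acid response in muscle, and it holds no amino acid shortage of its own.

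When a cell runs short of an amino acid, uncharged transfer RNA activates the kinase GCN2 (gene Eif2ak4), which phosphorylates the initiation factor eIF2alpha. Translation then slows in general while that of Atf4 mRNA increases, so the Atf4 transcript need not follow the amount of ATF4 protein. ATF4 pairs with other leucine zipper factors on C/EBP-ATF composite elements and induces genes of amino acid uptake and synthesis, of transfer RNA charging and of negative feedback. The same factor is also reached from endoplasmic reticulum and mitochondrial stress through other kinases, so its targets are not specific to amino acids.

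The promoters shown are those in which the core of that composite element was found, TGATGNAA searched on both strands in the 250 bases before each RefSeq start in build GRCr8. All 10 genes had a window, 11 windows in all because Gdf15 had a second start, and 2 of the 10 genes held the motif, against 3.4% of 33469 windows of the whole table. The 2 genes are Chac1 (chr3:126795881-126796130, plus strand) and Trib3 (chr3:161275534-161275783, minus strand). Capitals mark the match, which lies on the opposite strand of each printed sequence, so that it reads TGATGCAA for Chac1 and TGATGTAA for Trib3. It begins 167 bases before the start in Chac1 and 21 bases before it in Trib3.
Chac1: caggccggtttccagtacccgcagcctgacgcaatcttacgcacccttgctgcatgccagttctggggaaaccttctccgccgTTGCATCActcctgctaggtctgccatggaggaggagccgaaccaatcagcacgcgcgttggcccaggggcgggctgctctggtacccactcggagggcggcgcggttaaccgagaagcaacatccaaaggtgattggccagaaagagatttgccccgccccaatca
Trib3: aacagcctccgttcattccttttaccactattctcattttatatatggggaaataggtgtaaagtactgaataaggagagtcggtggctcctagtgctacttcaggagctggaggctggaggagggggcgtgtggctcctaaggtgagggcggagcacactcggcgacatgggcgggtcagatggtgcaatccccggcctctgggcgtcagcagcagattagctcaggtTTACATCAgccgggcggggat
A match is a description of these letters, and no factor binding was measured.

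The values were the deposited levels on a log2-like scale, in which arrays differ by very little. Over all probe sets, the median SD between the 8 rats was 3.69e-06. A deposited difference cannot be read as a fold change, and levels of different probe sets were used only to choose the brightest probe set of a gene and to filter dim ones in an alternative. Values per array are therefore given in SD units, as the distance from the mean of the 8 arrays divided by their SD. Differences are given as the standardized difference, WPH minus AAM over the pooled SD within meals, with a 95% interval from the noncentral t distribution. The label of the tissue was not checked, since a check by markers would set levels of different probe sets against each other. Along the first principal component, which held 25.5% of the variance, AAM replicate 3 and WPH replicate 4 lay at one end and AAM replicate 1 at the other.

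The deposited values of the 10 genes did not all spread to the same degree between rats. Since their scale is unknown, these SDs cannot be read as how much each transcript varied. The deposited spread of Chac1 was the widest, with an SD of 0.00111 and a range of 0.00289, at percentile 98.5 of all probe sets. Ddit3, Atf4 and Psat1 followed, with SDs of 2.72e-04, 2.01e-04 and 1.72e-04 at percentiles 96.0, 95.1 and 94.6, and then Asns with 6.02e-05. In all, 11 of the 13 probe sets had an SD above the median of all probe sets. The SDs of Atf5, Sesn2, Trib3 and Gdf15 at their brightest probe sets lay between 4.96e-06 for Gdf15 and 6.90e-06 for Atf5, close to the middle of the distribution.

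**Figure D1:**
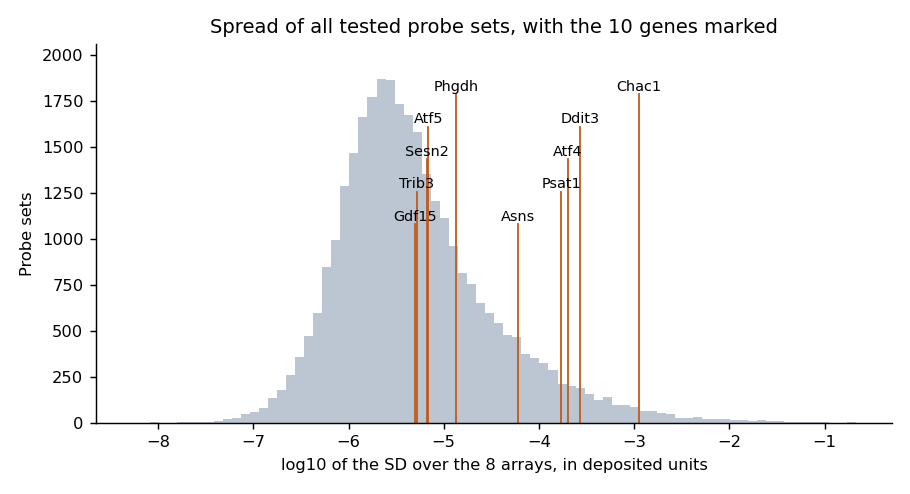
Number of tested probe sets (vertical axis) by the log10 of the SD over the 8 arrays in deposited units (horizontal axis). Orange lines mark the brightest probe set of each of the 10 genes, and Chac1, Ddit3, Atf4 and Psat1 lie in the upper tail.

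No gene of the set differed between the meals past the threshold. By limma with Benjamini-Hochberg adjustment over all probe sets, 0 of the 13 had an adjusted p below 0.05, as did 0 of 31042 overall (0%), and each of the 13 had an adjusted p of 0.99985. At an unadjusted p below 0.05 there were 2 of the 13, Gdf15 and 1 of the 3 probe sets of Trib3, against 3.58% of all probe sets. Both were dimmer than the median of all probe sets, as were Asns, Psat1 and Phgdh. The alternative with bright probe sets only therefore left them out. The meals did not overlap for 1 of the 13, against 2.23% of all. A single probe set makes up 7.69% of the 13, so neither count is read as a result about the set. Of the 13, 5 were higher and 8 lower after WPH, or 38.5% higher beside 47.3% of all probe sets. Taking the brightest probe set of each gene, 4 genes were higher and 6 lower, with a median standardized difference of -0.38 beside -0.04 over all probe sets. The 95% interval included 0 for 12 of the 13. For 4 of the 13, namely Asns, Atf5, Psat1 and 1 probe set of Sesn2, the interval reached past 1 pooled SD in both directions.

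**Figure D2:**
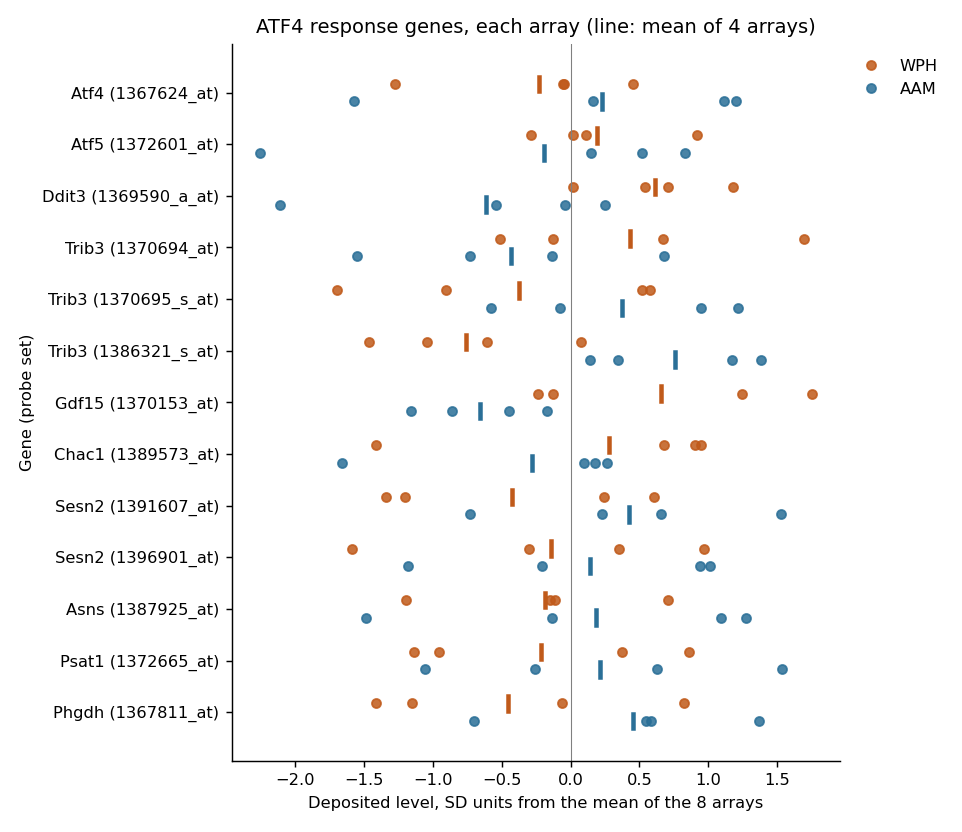
Level of each of the 13 probe sets on each array, in SD units from the mean of the 8 arrays (horizontal axis), with WPH arrays in orange above AAM arrays in blue and a vertical line at the mean of each 4. The meals are apart only for Trib3 1386321_s_at, and single low arrays stand out for Chac1, Ddit3 and Atf5.

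**Figure D3:**
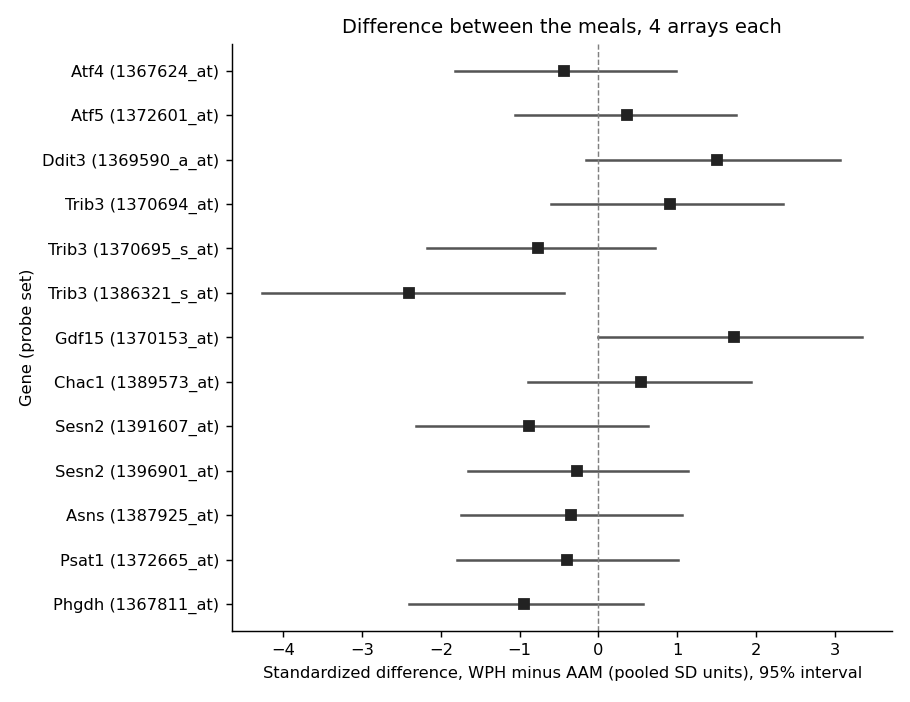
Standardized difference, WPH minus AAM in pooled SD units (square), with its 95% interval (line), for each probe set, n = 4 arrays per meal. The interval of Trib3 1386321_s_at lies below 0, that of Gdf15 reaches just below 0, and the others include 0.

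Among the transcription factors, Atf4 itself, the master regulator of the response, was not told apart between the meals. In SD units its 4 WPH arrays were at -0.044, -0.051, 0.45 and -1.27 and its 4 AAM arrays at 1.11, 0.17, -1.57 and 1.20. The AAM arrays spanned both the lowest and the highest values, and the WPH arrays lay between them. The standardized difference was -0.43 (95% interval -1.82 to 0.99, exact permutation p = 0.571). AAM replicate 3 was the low array, and without it the value was -1.56. It was -0.11 without WPH replicate 4, -0.13 without AAM replicate 4 and -0.15 without AAM replicate 1.

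Atf5, a related factor that, like Atf4, is regulated through upstream reading frames of its mRNA, had a standardized difference of 0.36 (-1.06 to 1.75). Its WPH arrays lay within -0.29 to 0.92 SD units and inside the span of the AAM arrays except for 1. AAM replicate 1, at -2.25, was far below the other 3 AAM arrays, at 0.83, 0.14 and 0.52. Without AAM replicate 1 the direction turned, with a value of -0.68.

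Ddit3, which encodes CHOP, a factor of the later stress response that is induced by ATF4 and feeds into cell death genes, had the largest value of the 3 but did not pass the test. Its deposited levels were 8.157759, 8.157616, 8.157804 and 8.157933 on the WPH arrays and 8.157038, 8.157600, 8.157679 and 8.157464 on the AAM arrays. All 4 WPH arrays were above the AAM mean, and a single AAM array, replicate 3, was above the lowest WPH array. The standardized difference was 1.498 (95% interval -0.16 to 3.07), with a limma p of 0.0651 before adjustment and an exact two-sided permutation p of 0.0571, where 0.0286 is the smallest that 4 against 4 arrays allow. With quantile normalization its meals could not be ordered.

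The remaining targets act on signalling, secretion and glutathione. Trib3 encodes a pseudokinase that binds AKT and dampens ATF4 and CHOP activity as negative feedback. Its 3 probe sets differed in direction. On 1386321_s_at the WPH arrays were at -1.04, -1.46, -0.61 and 0.076 SD units and the AAM arrays at 0.14, 1.38, 1.17 and 0.34. Every WPH array was below every AAM array, as for 1.15% of all probe sets, with a mean of -0.76 ± 0.66 for WPH against 0.76 ± 0.61 for AAM (SD, n = 4 each). The standardized difference was -2.40 (95% interval -4.27 to -0.43), with an unadjusted limma p of 0.0106 and an exact permutation p of 0.0286, the smallest possible. The deposited difference behind it was -2.09e-05 ± 6.17e-06 (SE, 4 rats per meal), where the level was 6.32. With quantile normalization the direction turned, to 0.10. Median centring moved all probe sets, with 9.01% of them higher after WPH and a median of -0.51, and there the value was -1.24.

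The brightest Trib3 probe set, 1370695_s_at, had -0.76 (-2.18 to 0.72), and 1370694_at had 0.90 (-0.60 to 2.34), with overlapping meals on both. With quantile normalization 1370694_at turned to -0.46, and with median centring to -0.50. The correlation over the 8 arrays was 0.41 between the 2 probe sets ending in s_at, a suffix given to probe sets that can match more than 1 transcript, and -0.21 and 0.03 between 1370694_at and these. For 9597 pairs of probe sets of the same gene over the whole table, the median correlation was 0.31 and 71.1% were above 0, and the sign of the difference between meals was the same in 56.6%. The mean of skin and hair epithelium markers separated the meals in the same direction as 1386321_s_at. Of the 7 measured, 4 were dimmer than the median of all probe sets and 5 were lower after WPH. Their mean in SD units ranged from -0.54 to -0.05 on the WPH arrays and from 0.13 to 0.33 on the AAM arrays. No correlation with these markers was computed for 1386321_s_at. For the brightest Trib3 probe set r was 0.19, and -0.39 after subtraction of each meal's mean. The part of such cells in the Trib3 value was not tested.

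Gdf15, which encodes a secreted stress hormone that acts on appetite through the brainstem, was the only other member with an unadjusted p below 0.05. Its WPH arrays were at -0.13, 1.75, -0.24 and 1.25 SD units and its AAM arrays at -0.86, -1.16, -0.17 and -0.44. WPH replicates 2 and 4 stood well above all AAM arrays, while WPH replicates 1 and 3 were near the highest AAM array. The standardized difference was 1.72 (95% interval -0.0095 to 3.35), with an unadjusted limma p of 0.0423 and an exact permutation p of 0.0571. The deposited difference was 6.53e-06 ± 2.69e-06 (SE, n = 4 per group). With quantile normalization the value was 0.53. With median centring it was -0.24, nearer to 0 than the median of all probe sets there.

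Chac1, a known ATF4 target, encodes an enzyme that degrades glutathione. Its deposited difference was the largest of the set, but so was its deposited spread, and genes cannot be ranked on this scale. Its levels were 10.180094, 10.177780, 10.180350 and 10.180395 on the WPH arrays and 10.179539, 10.179455, 10.177507 and 10.179635 on the AAM arrays. In each meal 3 arrays lay close together and 1 was far below, WPH replicate 2 and AAM replicate 3. The other 3 WPH arrays were above all AAM arrays. With all arrays the difference was 6.20e-04 ± 8.10e-04 (SE, n = 4 per group) and the standardized difference 0.54 (-0.90 to 1.94, exact permutation p = 0.457). The standardized difference was 1.56 without WPH replicate 2 and 0.11 without AAM replicate 3. Over the 8 arrays Chac1 went with the mean of the 12 fast fibre markers, with a Pearson r of 0.72 (exact permutation p = 0.0393, adjusted p = 0.423) and a Spearman rho of 0.88 (exact permutation p = 0.00724, adjusted p = 0.277), and an r of 0.60 without WPH replicate 4 and AAM replicate 3. The part of fibre composition in the Chac1 values was not tested.

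Sesn2 encodes sestrin 2, which holds mTORC1 in check when leucine is absent. Its 2 probe sets had standardized differences of -0.88 (-2.31 to 0.62) and -0.27 (-1.65 to 1.14). On the brighter one, WPH replicates 1 and 2 were below every AAM array, at -1.34 and -1.20 SD units, and WPH replicates 3 and 4 were within the AAM range of -0.73 to 1.53. The brighter one had -0.16 with quantile normalization, -0.54 without AAM replicate 1, -0.57 without WPH replicate 1 and -1.40 without AAM replicate 2. The other probe set turned to 0.22 without WPH replicate 1 and to 0.0059 without AAM replicate 1.

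The 3 enzymes of amino acid synthesis in the set had lower means after WPH, and none passed the test. Asns makes asparagine, and Phgdh and Psat1 catalyse the opening steps of serine synthesis from a glycolytic intermediate. The standardized differences were -0.35 for Asns (-1.74 to 1.06), -0.40 for Psat1 (-1.79 to 1.02) and -0.95 for Phgdh (-2.40 to 0.57). Without AAM replicate 3 that of Psat1 was 0.017, and with quantile normalization that of Phgdh was 0.15. When single arrays were left out, that of Asns ranged from -1.20 without AAM replicate 4 to -0.011 without AAM replicate 1, and that of Phgdh from -1.65 without WPH replicate 4 to -0.64 without WPH replicate 1.

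The 3 enzymes were high and low in largely the same rats, within both meals. In SD units Psat1 was at -1.14, -0.95, 0.38 and 0.86 on the WPH arrays and at 0.62, -0.26, 1.54 and -1.05 on the AAM arrays. Phgdh was at -1.41, -1.15, -0.062 and 0.82 on the WPH arrays and at 0.55, 0.59, 1.37 and -0.70 on the AAM arrays. Asns was at -1.19, -0.15, -0.12 and 0.71 on the WPH arrays and at 1.27, -0.14, 1.09 and -1.48 on the AAM arrays. WPH replicate 1 and AAM replicate 4 were low for all 3 genes, and WPH replicate 4, AAM replicate 1 and AAM replicate 3 were high for all 3. On the first principal component of all probe sets, WPH replicate 4 and AAM replicate 3 lay at 103.3 and 152.5. WPH replicate 1 and AAM replicate 4 lay at -70.5 and -55.8, while AAM replicate 1 lay at -107.1. The part of this array-wide component in the shared pattern was not tested. Over the 8 arrays Pearson's r was 0.92 and Spearman's rho 0.90 for Psat1 with Phgdh (exact permutation p = 0.00258 and 0.00456), 0.88 and 0.90 for Asns with Psat1 (p = 0.00553 and 0.00456), and 0.80 and 0.74 for Asns with Phgdh (p = 0.0197 and 0.0458). Adjusted over the 45 pairs of the 10 genes, the p-values were 0.116, 0.124 and 0.295 for r and 0.103, 0.103 and 0.688 for rho, so no pair passed the correction. Without the 2 arrays farthest from the median, r was 0.84, 0.90 and 0.87 in that order, and after subtraction of each meal's mean it was 0.94, 0.87 and 0.82. Of all 45 pairs, 18 had an r above 0, and the median r was -0.096. In all, 5 pairs had an unadjusted exact permutation p of r below 0.05. Besides the enzyme pairs, these were Trib3 with Gdf15 (r = -0.74, p = 0.0381) and Atf5 with Sesn2 (r = -0.71, p = 0.0324). Both of these had an adjusted p of 0.343, and r was -0.11 and -0.20 without the 2 farthest arrays.

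Adipocyte markers followed the same rats. The mean of the 6 measured markers in SD units was -0.71, -0.99, 0.29 and 0.62 on the WPH arrays and 1.11, -0.11, 0.76 and -0.97 on the AAM arrays, so the meals overlapped. Its r was 0.92 with Psat1, 0.89 with Asns and 0.85 with Phgdh (exact permutation p = 0.00278, 0.00499 and 0.0132), its rho 0.83, 0.93 and 0.74 (p = 0.0154, 0.00223 and 0.0458), and r without the 2 farthest arrays was 0.88, 0.98 and 0.78. The adjusted p over the 90 relations of 10 genes with 9 marker lists, that of Chac1 with fast fibre markers among them, was 0.215, 0.215 and 0.258 for r and 0.277, 0.201 and 0.516 for rho. These relations were computed after the pattern of the enzymes had been seen. Among the single markers, Cfd, the adipocyte serine protease adipsin, had r values of 0.98, 0.91 and 0.88 with Psat1, Asns and Phgdh. Adipoq, the adiponectin gene, had 0.93, 0.96 and 0.87, and Cidec and Plin1, which code for lipid droplet proteins, lay between 0.86 and 0.94. Fabp4, which endothelial cells express too, had 0.77, 0.69 and 0.48, and Lep, at a spread of 2.00e-07, lay between -0.06 and 0.23. Of the 6 markers, 4 were dimmer than the median of all probe sets, namely Adipoq, Plin1, Cidec and Lep. Cfd and Fabp4 were bright, at level percentiles 91.5 and 99.1. Macrophage markers, 11 in number, had r values of 0.86 with Psat1, 0.88 with Asns and 0.67 with Phgdh (exact permutation p = 0.0144, 0.00717 and 0.077, adjusted p = 0.258, 0.215 and 0.578). Their rho was 0.81, 0.86 and 0.57 (exact permutation p = 0.0218, 0.0107 and 0.151, adjusted p = 0.280, 0.277 and 0.648), and r without the 2 farthest arrays was 0.71, 0.65 and 0.36. Fibroblast markers, 8 in number, had r values of 0.79 with Psat1, 0.53 with Asns and 0.73 with Phgdh (exact permutation p = 0.0193, 0.176 and 0.0423, adjusted p = 0.290, 0.754 and 0.423). Their rho was 0.81, 0.67 and 0.83 (exact permutation p = 0.0218, 0.0831 and 0.0154, adjusted p = 0.280, 0.648 and 0.277), r without the 2 farthest arrays was 0.72, 0.25 and 0.58, and r within meals was 0.85, 0.57 and 0.91. Whether other cells in the sample contributed these transcripts was not tested, and in whole muscle more cells of a type and more RNA per cell cannot be told apart.

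**Figure D4:**
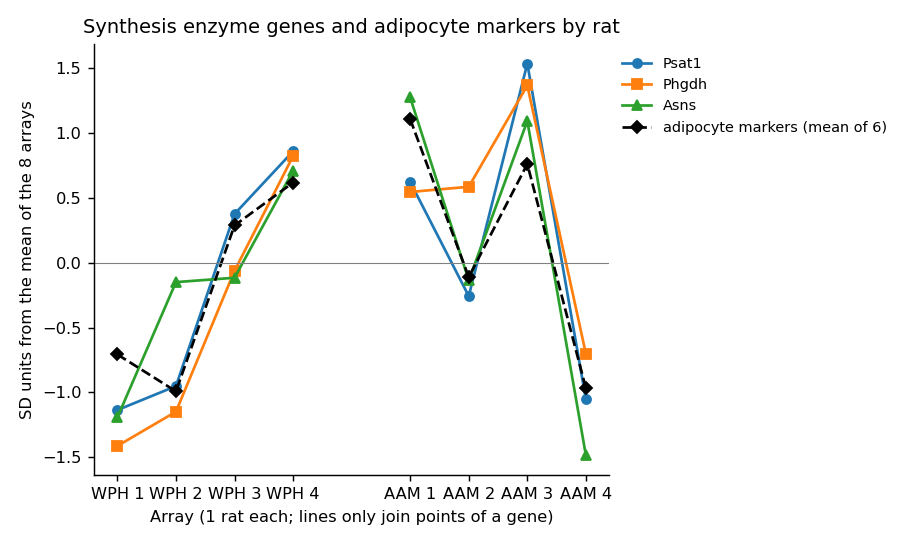
Psat1, Phgdh and Asns and the mean of 6 adipocyte markers on each array, in SD units from the mean of the 8 arrays (vertical axis), with the 4 WPH arrays left of the 4 AAM arrays (horizontal axis). All 4 lines are high on WPH 4, AAM 1 and AAM 3 and low on WPH 1 and AAM 4, and the meals overlap.

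Genes around the set were read from 8 lists. These cover the ATF4 pathway, the other branches of the endoplasmic reticulum stress response and the amino acid sensors of mTORC1. Together they held 122 measured genes beside the 10 when each was counted once. Of these, 56 were higher and 66 lower after WPH, with a median standardized difference of -0.064. By limma 0 passed the adjusted threshold, and 3 had an unadjusted p below 0.05 (2.46%, beside 3.58% of all probe sets), all 3 higher after WPH.

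Upstream of ATF4, 5 of 16 measured eIF2alpha kinases and regulators were higher and 11 lower after WPH, with a median of -0.31. Eif2ak4, the amino acid sensor GCN2, had -0.72, and its partner Gcn1 had -0.29. Named by the smallest p were Ppp1r15a, the phosphatase subunit that reverses eIF2alpha phosphorylation (1.20, -0.38 to 2.69), and the haem-regulated kinase gene Eif2ak1 (-1.02, -2.48 to 0.51). None of the 16 had an unadjusted p below 0.05.

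Of 14 leucine zipper partners and competitors, 9 were higher and 5 lower, with 2 at an unadjusted p below 0.05. These were Junb (2.25, 95% interval 0.34 to 4.06, unadjusted limma p = 0.014, exact permutation p = 0.0286) and Atf3 (2.05, 0.21 to 3.79, limma p = 0.0208, exact p = 0.0571), a repressor that is itself an ATF4 target. Atf3 was at 1.09, -0.35, 1.46 and 0.66 SD units on the WPH arrays and at -1.36, -0.0092, -0.44 and -1.05 on the AAM arrays. WPH replicate 2 lay among the AAM arrays. It was the lowest WPH array, as it also was for Chac1. Both genes are also immediate early genes that contraction induces.

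Further ATF4 targets were divided by function. Amino acid transporters had 4 of 10 higher, with the cystine transporter gene Slc7a11 at -1.34 and its heavy chain partner Slc3a2 at -0.71. Enzymes of amino acid and 1-carbon synthesis had 9 of 14 higher and a median of 0.51. Among them Cbs, of the transsulfuration pathway, had 0.81, Bcat1, a branched-chain aminotransferase, -0.97, and Psph, which completes serine synthesis, 0.55. Aminoacyl-tRNA synthetases with the transfer RNA exporter Xpot had 1 of 13 higher and 12 lower, with a median of -0.28. Gars1, the glycyl-tRNA synthetase, had the largest value of that list, -1.55 (-3.13 to 0.13, exact permutation p = 0.0286, unadjusted limma p = 0.0589). Its WPH arrays were all below its AAM arrays, as for 1.15% of all probe sets. The meals did not overlap for 1 of the 13, which is not read as a result about the list. Cars1, the cysteinyl-tRNA synthetase, had -0.96 (-2.41 to 0.56). For Gars1, WPH replicate 4 was at -2.22 SD units and the other 3 WPH arrays between -0.26 and 0.016, against 0.18 to 1.14 on the AAM arrays. The mean of the synthetase list in SD units ranged from -1.16 to 0.45 on the WPH arrays and from -0.62 to 0.69 on the AAM arrays, so the meals overlapped. Of 20 targets of stress, growth and secretion 13 were higher, with Atf3 and Bcl2l11, a gene of a pro-apoptotic BCL2 family protein (1.75, 0.016 to 3.40, unadjusted limma p = 0.0396, exact permutation p = 0.0857), ahead. Fgf21, another secreted stress hormone, had -1.15 where Gdf15 had 1.72.

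The ATF6 and IRE1 branches of the endoplasmic reticulum stress response had 11 of 22 higher and a median of 0.023, with Sel1l at 0.83 and Canx at -0.71. Amino acid sensors of mTORC1 and sestrins had 8 of 19 higher and a median of -0.24. Wdr24, of the GATOR2 complex, had -1.59 (-3.19 to 0.095) and Slc38a9, the lysosomal arginine sensor, -1.14. No gene of either list had an unadjusted p below 0.05.

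**Figure D5:**
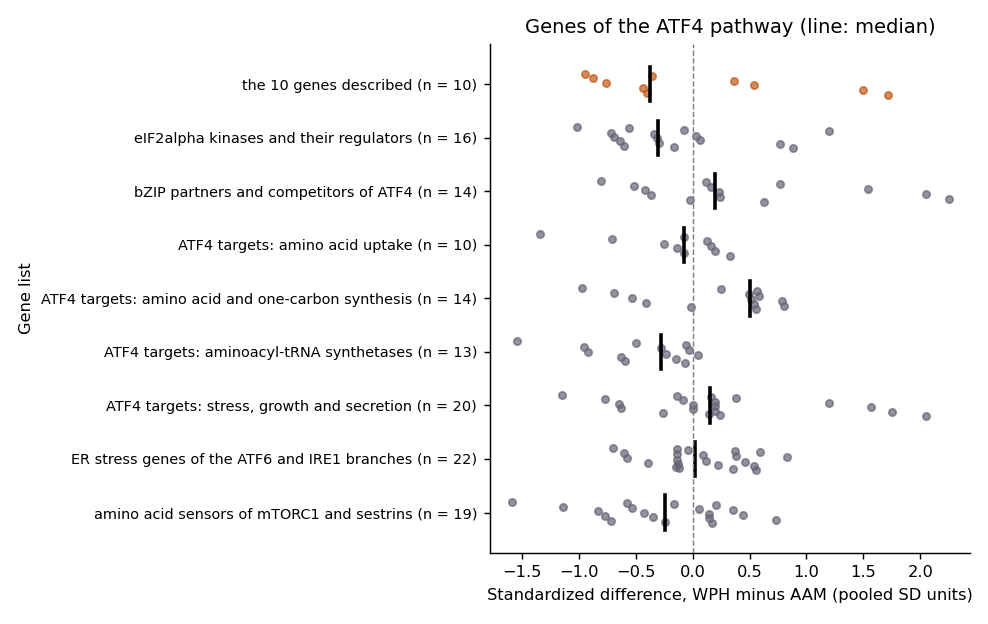
Standardized difference, WPH minus AAM in pooled SD units (horizontal axis), of each gene in the set and in the 8 lists around it. Each point is 1 gene, and the black line is the median. The medians lie between -0.38 for the 10 genes and 0.51 for synthesis enzymes.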

How the data were processed

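The authors deposited 1 log2-like expression level per probe set and array. Per the submitters' processing notes, R 2.7.2 was used. The sources used here name no background correction, normalization or summary step, so scale and centring are unknown. Values lay between 5.28 and 14.2, with a median of 6.66 on every array, and no arrays were identical.

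Of 31099 probe sets, 57 controls were left out. Symbols came from the platform annotation, with gene IDs set against a GRCr8 gene table (20758 of 20826 matched). WPH was compared with AAM by limma 3.58.1 in R 4.3.3 (lmFit, eBayes, two-sided, Benjamini-Hochberg over 31042 probe sets, threshold 0.05). On simulated arrays it recovered 6 of 67 shifts of 3 SD, 41 of 67 of 6 SD and 66 of 66 of 12 SD, with 2 false calls. Exact tests over the 35 splits and permutations of correlations used Python 3.11.15 and scipy 1.17.1. A gene was represented by its brightest probe set unless another is named. Each array is a separate rat per the labels. The number of arrays limits the precision, and no label tells which rats shared a barrel or an array batch.

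All members are named, with the 2 genes of smallest p in each of the pathway lists and a few further genes chosen for their known role or after their values were seen. Members and lists were chosen with earlier results of these data known. Alternatives were quantile normalization, median centring, bright probe sets only, the replicate block, array weights, leaving out each array, a robust prior with a trend, unit SD per probe set, a mean over the probe sets of a gene and a threshold of 0.1.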

Additional observations from a re-analysis of the deposited data

Results flagged for a closer look

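Chac1 was flagged in both meals because 1 array lay far from the other 3. The gap to the nearest array made up 0.885 of the range among the WPH arrays (replicate 2 low) and 0.915 among the AAM arrays (replicate 3 low), above Dixon's critical value. Of 26 groups of 4 arrays tested over the 13 probe sets, 2 were flagged, where chance gives about 1.3. The standardized difference of Chac1 was 1.56 without WPH replicate 2, 0.11 without AAM replicate 3 and 0.54 with all arrays.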

How the results depend on the processing

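No probe set passed the threshold under the alternatives that gave a count of calls, nor at a threshold of 0.1. The mean over the probe sets of a gene was fitted for all 14217 genes, and its calls were not counted. There the adjusted p of each of the 10 genes was 0.9994. By limma the number at an unadjusted p below 0.05 was 1110 as reported and ranged from 172 with median centring to 1377 without AAM replicate 3. With the replicate block 0 probe sets passed and 5 of the 13 were higher after WPH. Same-numbered arrays of the meals had correlations of their deviations of 0.17, 0.14, 0.067 and -0.078, so the numbers were not taken as pairs. With median centring 2 of the 13 were higher, Atf5 had -0.39 and Gdf15 -0.24, and 9.01% of all probe sets were higher. With quantile normalization Phgdh had 0.15. There, 9 of the 13 had a direction, 4 of them higher, while 1 became constant and 3 had equal group means, and Trib3 turned on both of its dimmer probe sets. Between 5 and 6 of the 13 were higher when single arrays were left out, where Atf5 ranged from -0.68 to 0.70 and Psat1 from -0.89 to 0.017. The cause of these turns was not tested. Of the other genes, at their brightest probe set, Asns and Sesn2 kept their direction in every alternative that gave them a value. Atf4, Chac1, Ddit3 and Trib3 did so too, but with quantile normalization they had no direction.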
